A study of Mus musculus with 2 samples.

Results

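The regions described here are the DNase-seq peaks of embryonic mouse midbrain that lie closest to olfactory receptor genes. A replicate 2 peak on chromosomes 1 to 19 was taken as a member when its centre was nearer to the 5′ end of a protein-coding gene whose symbol starts with Olfr than to the 5′ end of any other protein-coding gene. By this rule 730 of 260938 autosomal replicate 2 peaks were members, or 0.28%. The study has 1 group of 2 biological replicates, and nothing was treated or mutated: healthy midbrain tissue of strain B6NCrl at embryonic day 14.5, from pooled male and female embryos. The labels list separate biosamples for the replicates but the same donor entry, and whether they differ by more than handling is not known. With a single group there is no contrast between conditions and no test. Shares are given with 95% exact binomial intervals (Clopper-Pearson), which cover counting error only, since neighbouring peaks are not independent.

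Olfactory receptors are G protein-coupled receptors that bind odorants, and their genes stand in tandem arrays on most mouse chromosomes. An olfactory sensory neuron transcribes a single allele of a single receptor gene, while the other receptor genes stay packed in heterochromatin marked by methylated histone H3 lysine 9. In those neurons, intergenic enhancers bound by the homeodomain factor Lhx2, by Ebf factors and by their cofactor Ldb1 act on receptor genes of the same and of other arrays. The midbrain holds no olfactory sensory neurons. DNase I cuts DNA that is free of packed nucleosomes, and a peak is a short stretch with many cuts.

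The member with the highest mean rank over both replicates lay at a gene of another kind, and its sequence is printed first with that of a similar peak on another chromosome, which ranked 6 among the members. Both peaks overlapped a transfer RNA gene, transcribed by RNA polymerase III from promoter elements within the gene, and the bases of the tRNA gene are in capitals (mm10, plus strand, 5′ to 3′).
tRNA-Leu peak near Olfr1423, chr19:12010996-12011145: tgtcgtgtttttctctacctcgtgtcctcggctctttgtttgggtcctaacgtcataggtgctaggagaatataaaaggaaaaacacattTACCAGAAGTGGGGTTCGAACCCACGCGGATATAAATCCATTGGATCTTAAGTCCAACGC
tRNA-Phe peak near Olfr1368, chr13:21161296-21161445: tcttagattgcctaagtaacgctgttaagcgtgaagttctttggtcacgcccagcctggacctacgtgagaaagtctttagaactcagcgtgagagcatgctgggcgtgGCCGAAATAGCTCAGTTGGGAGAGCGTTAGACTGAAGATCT
In the first peak the tRNA-Leu gene lies on the minus strand, so the capitals show its complement, and in the second the tRNA-Phe gene lies on the plus strand. The tRNA-Leu peak had a value of 96 in replicate 1 and 134 in replicate 2, and lay 30.2 kb from the 5′ end of Olfr1423. The tRNA-Phe peak had values of 77 and 130 and lay 15.5 kb from that of Olfr1368. These values are the authors' signal for a peak, whole numbers of at most 150 that are not scaled between the replicates.

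A peak rich in CpG and one of the strongest members at a receptor promoter are shown next. CpG dinucleotides, which are rare in most of the genome and dense in CpG islands, are in capitals.
CpG-rich peak near Olfr545, chr7:102513156-102513305: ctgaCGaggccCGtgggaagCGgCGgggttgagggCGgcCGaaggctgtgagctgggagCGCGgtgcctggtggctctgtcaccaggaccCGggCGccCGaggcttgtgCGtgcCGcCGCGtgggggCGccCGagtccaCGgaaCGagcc
promoter peak of Olfr156, chr4:43824096-43824245: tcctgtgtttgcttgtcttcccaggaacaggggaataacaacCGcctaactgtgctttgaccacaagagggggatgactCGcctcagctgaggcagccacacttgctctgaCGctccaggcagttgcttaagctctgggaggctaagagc
The peak near Olfr545 held 19 CpG in 150 bp with a GC content of 75.3%, and had the highest replicate 2 value of all members, 135, with 83 in replicate 1. It lay 13.7 kb upstream of Olfr545, outside all annotated genes, and 7.78 kb from the nearest start of any other GENCODE gene, the processed pseudogene Gm8556. The peak of Olfr156, whose centre lay 276 bp upstream of the gene, held 3 CpG and had values of 32 and 90.

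Promoter peaks at marker genes gave only a weak check of the tissue, since most protein-coding genes had one. All 10 of the midbrain markers had a peak in both replicates within 1000 bp of the 5′ end, among them En1 (94 and 138 in replicates 1 and 2), En2 (111 and 141), which pattern the midbrain, and Otx2 (25 and 95), required for forebrain and midbrain identity. Of the 8 olfactory sensory neuron markers 2 did, Adcy3 (59 and 127) and Gnal (47 and 107), which encode the odorant signalling adenylyl cyclase and G protein subunit. Olfactory marker protein, Omp, and the channel subunits Cnga2 and Cnga4 had none in either replicate. Of 3 vomeronasal neuron markers, the channel gene Trpc2 had none either, while the G protein subunit genes Gnao1 (102 and 143) and Gnai2 (89 and 144) had one in both. Over all autosomal protein-coding genes, 65.6% had such a shared peak. Replicate 1 held 710176 peaks with a median value of 6 and replicate 2 held 267958 with a median of 51. The read depth is unknown.

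Of the 730 members, 391 overlapped a replicate 1 peak by at least 1 bp, or 53.6% (interval 49.9 to 57.2). Among all autosomal replicate 2 peaks the share was 64.1%. These 391 are called shared, and the remaining 339 were found in replicate 2 alone. The members' replicate 2 values ran from 10 to 135 with a median of 34, against a median of 52 over all autosomal peaks of that replicate. The shared members' replicate 1 values ran from 3 to 96 with a median of 15, against 20 for shared peaks at large. Members were thus weaker than the general peak in both replicates.

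The strength of a member and its recurrence went together. Shared members had a median replicate 2 value of 54 and those of replicate 2 alone a median of 26. Across the 391 shared members the replicates ranked the values alike, with a Spearman coefficient of 0.88, which is given as a description over peaks of 2 libraries. It was 0.90 over the other shared peaks. The replicate 1 value was a median 0.339 of the replicate 2 value in the members and 0.329 in the other shared peaks. A plot of the values of each replicate shows the curve that the points of the shared members follow.

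**Figure D1:**
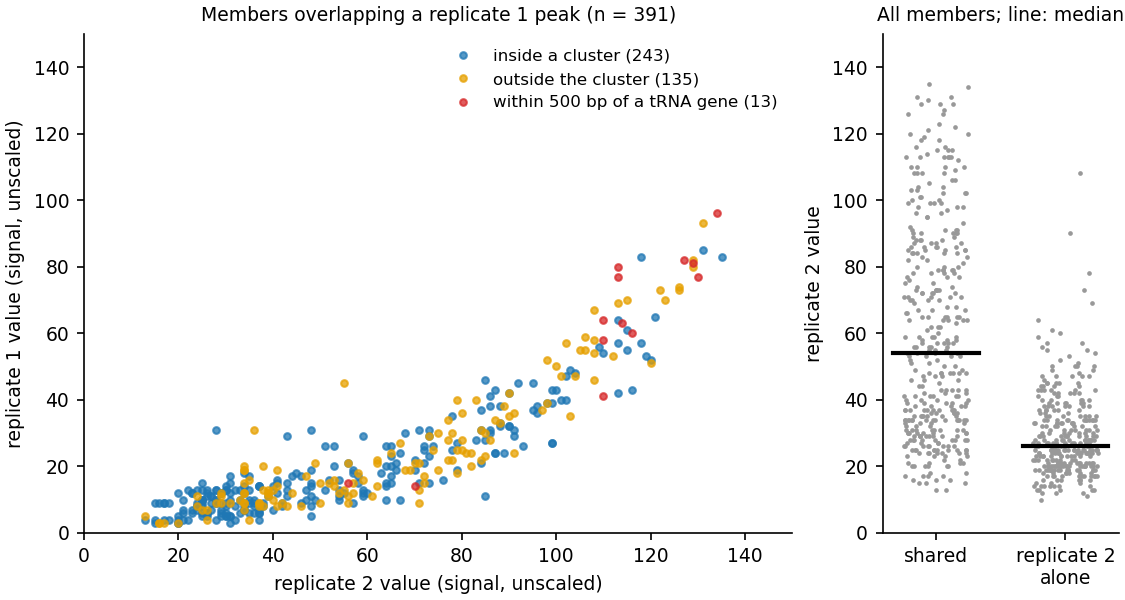
Left, the replicate 1 value (y axis, unscaled signal) of each of the 391 shared members against its replicate 2 value (x axis). Blue points lie inside an Olfr cluster, orange points outside it and red points within 500 bp of a tRNA gene. Right, the replicate 2 values of shared members and of members of replicate 2 alone, with medians of 54 and 26 as black lines. Replicate 1 values rise slowly up to a replicate 2 value of about 60 and steeply above 100, where most red points lie.

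At equal replicate 2 value, members recurred in replicate 1 about as often as other peaks or more often. With values of 20 or less, 20 of 106 members were shared (18.9%, interval 11.9 to 27.6), against 19% of other peaks. Over 30 and up to 40 it was 66 of 135 (48.9%, 40.2 to 57.6), against 37.4%. Over 60 and up to 80 it was 63 of 68 (92.6%, 83.7 to 97.6), against 85.1%. Of the 54 members over 100, 53 were shared (98.1%, 90.1 to 100), against 96.9%. When the other peaks were weighted to the members' values, their shared share came to 48%, below the members' 53.6%. The lower recurrence of members as a whole went with their values: 14.5% of members but 0.925% of other peaks had a value of 20 or less, and 7.4% of members but 14.1% of others exceeded 100.

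**Figure D2:**
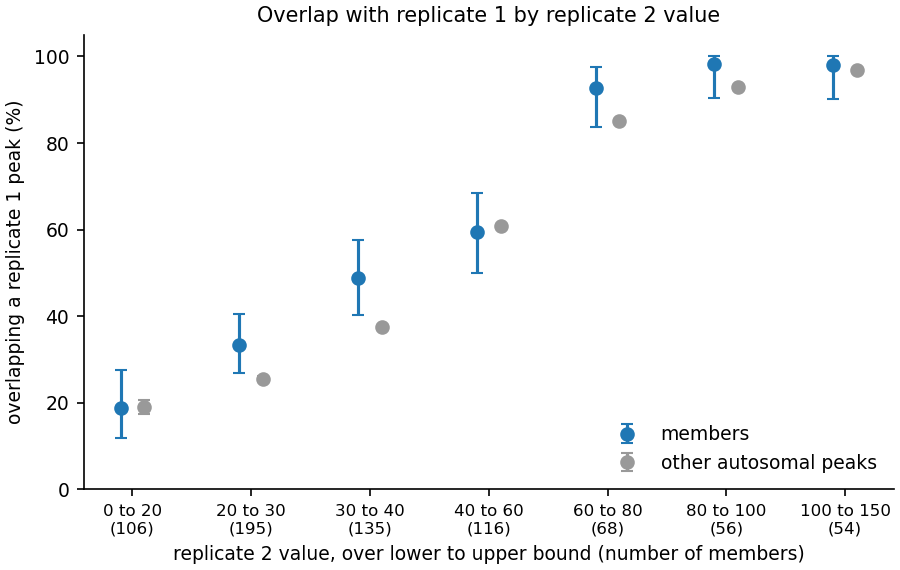
Share of peaks that overlap a replicate 1 peak (y axis, percent) by class of replicate 2 value (x axis, with the number of members), for members (blue) and all other autosomal replicate 2 peaks (grey). Bars are 95% exact binomial intervals. The members' share runs from 18.9% in the lowest class to 98.1% in the highest and lies above that of other peaks in all classes but the lowest and that from 40 to 60. The members' interval leaves out the other peaks' share in the classes from 20 to 30 and from 30 to 40 only.

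The same rule applied to replicate 1 gave 4280 members of 689185 autosomal peaks, or 0.621%. Most were weak, with a median value of 4. Of these, 401 overlapped a replicate 2 peak, or 9.37% (interval 8.51 to 10.3), against 24.8% of all autosomal replicate 1 peaks. No replicate 1 member without a replicate 2 partner had a value over 37, so every stronger one recurred.

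Few receptor promoters had a peak. Of 1128 autosomal protein-coding Olfr genes, 63 had a replicate 2 peak within 1000 bp of the 5′ end, or 5.59% (interval 4.32 to 7.09), against 69.3% of all autosomal protein-coding genes. In replicate 1 the number was 235, or 20.8% (18.5 to 23.3), against 72.3%. The strongest replicate 1 peak at these 235 promoters had a median value of 5, and at other protein-coding promoters with a peak the median was 87. A shared peak lay at 30 receptor promoters, or 2.66% (1.8 to 3.78), against 65.6%. The vomeronasal receptor genes Vmn1r and Vmn2r, another set of tandem arrays, were similar, with a replicate 2 peak at 10 of 329 promoters and a shared one at 3.

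Members at receptor promoters were weaker than members elsewhere. There were 72 with their centre within 1000 bp of an Olfr 5′ end, or 9.86% of members, while 11.6% of all autosomal replicate 2 peaks lay as near a protein-coding 5′ end. Their median value was 27 and their maximum 99, and 34 were shared (47.2%, interval 35.3 to 59.3). Other peaks that near a protein-coding 5′ end had a median of 100, and 77% were shared. The members' median was higher further out, 40 at 10 to 50 kb and 43.5 at 50 to 100 kb, whereas that of other peaks was lower there, at 50 and 49. Beyond 100 kb the medians were 43 and 46.

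**Figure D3:**
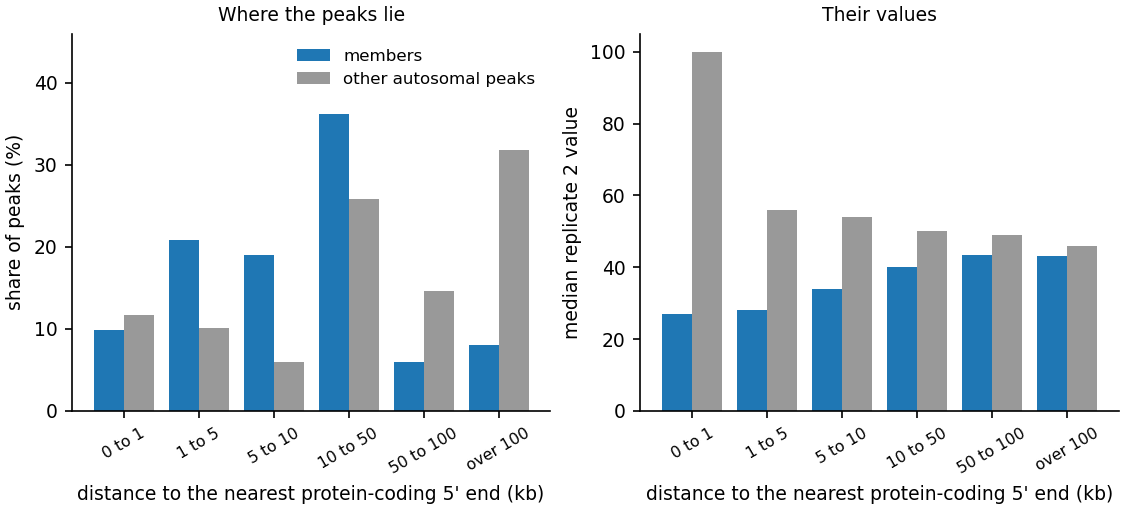
Left, share of peaks (percent) by distance in kb from the peak centre to the nearest protein-coding 5′ end, for members (blue, where that gene is an Olfr gene) and other autosomal replicate 2 peaks (grey). Right, the median replicate 2 value in each class. Members within 1 kb have the lowest median, 27, while other peaks within 1 kb have the highest, 100.

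The strongest promoter member lay 6 bp upstream of Olfr658, a gene of the class I array on chromosome 7, with values of 27 in replicate 1 and 99 in replicate 2. Next came Olfr156, shown above, and Olfr557 (28 and 83, centre 340 bp upstream). Olfr556, in the same array, had a member in its intron 652 bp from the 5′ end with values of 35 and 78. The next gene, Olfr958 on chromosome 9, had a member of 78 that was not found in replicate 1, 96 bp upstream. The other 5 of the 10 strongest promoter members belonged to Olfr1499 (21 and 72), Olfr1033 (17 and 65), Olfr12 (50, replicate 2 alone), Olfr1231 (29 and 43) and Olfr215 (8 and 38). In the peak of Olfr1033, 79.3% of the bases were masked as repeat and 79.1% of 36-base windows occurred once in the genome. The values of these 10 stayed below the median of 100 for peaks at other promoters.

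Most members lay between genes. No annotated gene covered the centre of 518 members (71%). An Olfr gene covered 146 centres, 80 in an exon and 66 in an intron, another protein-coding gene 38, and a gene of another type 28. The same shares were not computed over all autosomal replicate 2 peaks, so these counts describe the members alone. Relative to the nearest Olfr gene, 329 members were upstream of its 5′ end, 114 within it and 287 downstream. The median distance to the nearest Olfr 5′ end was 10.2 kb (quartiles 3.61 and 25.4 kb, at most 854 kb). Other peaks had a median of 42.1 kb to the nearest protein-coding 5′ end. The rule bears on this contrast, since it takes members by their closeness to genes that stand in tandem arrays.

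Receptor genes were placed in clusters by joining autosomal Olfr genes with gaps of at most 1000 kb. This gave 48 units, 40 clusters of 2 or more genes and 8 lone genes. Members fell in 44 of them, and 43 had a shared member. The 4 units without a member were the pair Olfr461 and Olfr460 on chromosome 6, the lone genes Olfr370 on chromosome 8 and Olfr19 on chromosome 16, and the 4 genes from Olfr55 to Olfr63 on chromosome 17. In that last cluster 45.1% of 36-base windows occurred once in the genome, the lowest share of all 48, and 37 replicate 1 peaks lay in its span.

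Clusters were poor in peaks. The spans of the 48 units covered 34.5 Mb and held 36.5 replicate 2 peaks per Mb, whichever gene these were nearest to, against 110 per Mb in the rest of the autosomes. In replicate 1 the numbers were 147 and 290 per Mb. Masked repeats made up 45.2% of the bases in the spans and 33.3% elsewhere, and 76.5% of 36-base windows in the spans occurred once in the genome against 86% over the autosomes. Reads from repeated sequence may be lost in alignment, and the part of this in the lower density was not tested.

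Within the spans lay 525 members (71.9%), and 205 lay outside, past the last gene of a cluster or beside a lone gene. Inside members were weaker and recurred less: their median replicate 2 value was 31 and 256 were shared (48.8%, interval 44.4 to 53.1). Outside members had a median of 44 and 135 were shared (65.9%, 58.9 to 72.3), close to the 64.1% of all peaks. Other peaks weighted to the same values gave 44% for the inside and 58.2% for the outside members. Inside members more than 200 kb from any other protein-coding 5′ end numbered 105 and had a median of 26, and the 193 within 50 kb of one had a median of 37.

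The 10 clusters with most members held 383 of them, or 52.5%. The cluster on chromosome 9 from Olfr160 to Olfr986 (95 genes) led with 65 members, 32 of them shared, all inside its span. On chromosome 19 the cluster from Olfr1417 to Olfr1505 (66 genes) had 55, 36 of them shared, with the highest median of these 10, 64. The largest array, 227 genes on chromosome 2 from Olfr987 to Olfr1274-ps, had 52 members with a median of 26, 27 of them shared. The class I array on chromosome 7 (129 genes, Olfr543 to Olfr692) had 47 members, 28 of them shared. These 4 were among the 5 clusters with most genes. Member number followed gene number only in part: 68 genes on chromosome 7 (Olfr693 to Olfr519) had 16 members, 13 genes on chromosome 13 (Olfr1370 to Olfr1359) had 33 members, and 37 genes on chromosome 9 (Olfr24 to Olfr18) had 5. In the remaining clusters of the 10, shared members numbered 19 of 33 (chromosome 14, Olfr722 to Olfr1507), 13 of 28 and 12 of 25 (chromosome 11), 8 of 24 (chromosome 17) and 13 of 21 (chromosome 10).

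**Figure D4:**
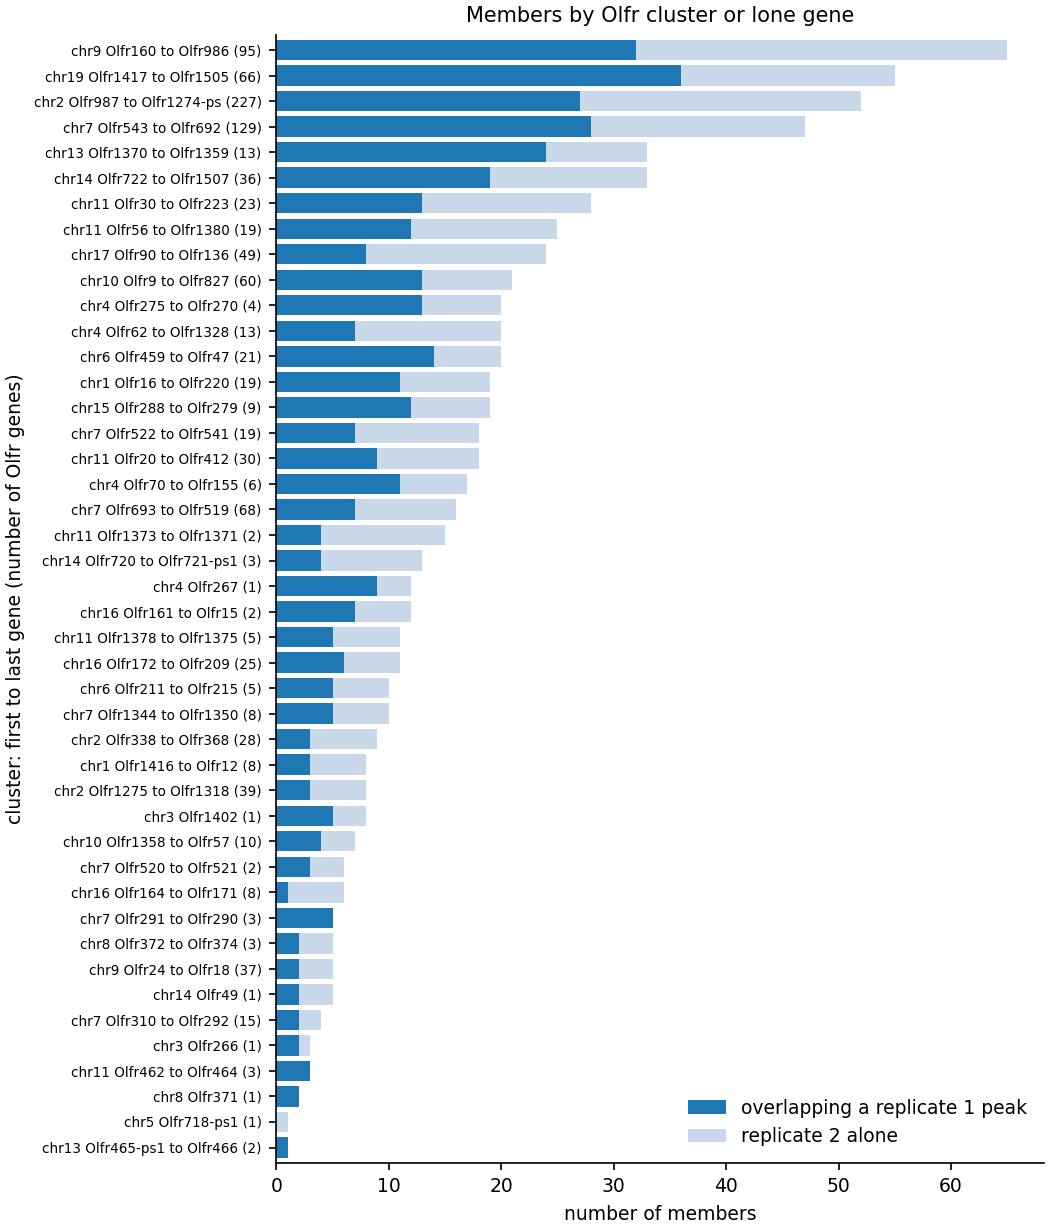
Number of members (x axis) for each of the 44 clusters or lone genes that had any, labelled by chromosome, first and last gene and, in brackets, the number of Olfr genes. Dark bars count members that overlap a replicate 1 peak and light bars those of replicate 2 alone. The cluster on chromosome 9 from Olfr160 to Olfr986 is longest with 65, and only the lone gene Olfr718-ps1 has no shared member.

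Single receptor genes collected many members where they stand at the edge of an array. Olfr1505, the last gene of the chromosome 19 cluster, was nearest to 27 members, all outside the cluster, 67.9 to 334 kb from the gene, and 17 were shared. Their strongest, 210 kb away, had values of 74 and 126. Olfr412, at the end of a chromosome 11 cluster, was nearest to 17, and Olfr1370, at the start of the chromosome 13 cluster, to 15. Most members of both lay within another gene, in introns of Rap1gap2 for Olfr412 and of Aoah for Olfr1370. At the other extreme, 815 of the 1128 genes (72.3%) were nearest to no member, and 165 to exactly 1.

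Olfr1423 was different, since all of its 16 members lay inside the chromosome 19 cluster, 25.4 to 36.4 kb from the gene, with a median value of 109. Of these, 15 stood within 8630 bp, each at most 2000 bp from the next, at chr19:12004836-12013465. RefSeq places 7 tRNA genes in this stretch, for lysine (2 genes), phenylalanine, leucine, arginine and valine (2 genes), and each overlapped a member. The second valine gene overlapped its member only by its last bases. The members at the 7 genes, in genome order, had replicate 2 values of 113, 56, 110, 134, 129, 114 and 116. In replicate 1 the same peaks had 80, 15, 58, 96, 81, 63 and 60. Of the 15 members 12 were shared, and only the one at the phenylalanine gene (15 and 56) was weak among those at tRNA genes.

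**Figure D5:**
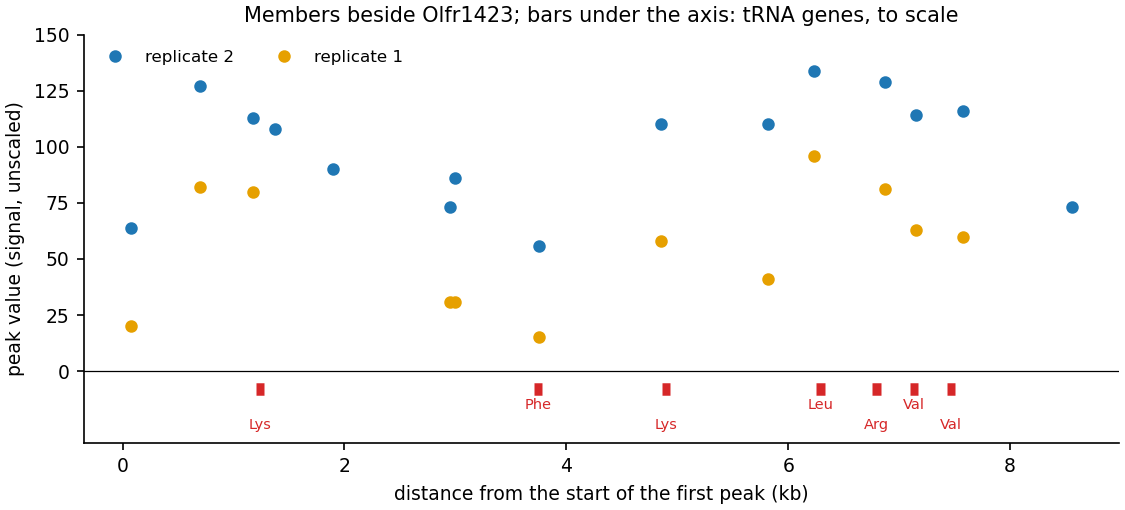
Value (y axis, unscaled signal) of the 15 members beside Olfr1423 in replicate 2 (blue) and replicate 1 (orange, where a peak overlapped) against the distance in kb from the start of the first peak. Red bars under the axis are the 7 tRNA genes, drawn to scale with their amino acids. Every tRNA gene overlaps a member, the second valine gene only by its last bases, and 6 of these 7 members are at 110 or more in replicate 2.

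A second run lay upstream of Olfr1368 on chromosome 13, at chr13:21158236-21161525, where 8 members stood within 3290 bp with replicate 2 values of 41 to 130 and 7 were shared. Of these, 3 overlapped a tRNA gene, for glutamate (values 64 and 110) or phenylalanine (77 and 130, and 77 and 113 in overlapping peaks on the same gene). The check of tRNA genes was chosen after these values were seen. In all, 10 members overlapped a tRNA gene, or 1.37% (interval 0.659 to 2.5), against 0.107% of all autosomal replicate 2 peaks. All 10 were shared. Within 500 bp of a tRNA gene lay 14 members (1.92%, 1.05 to 3.2), against 0.195%. Among the 54 members with a value over 100 there were 12 (22.2%, 12 to 35.6), but among the other peaks over 100 only 0.686%. All 14 lay in this run or in the one beside Olfr1423, some at the same tRNA gene, so they are not independent. Transfer RNA genes exist in near-identical copies, and in these 14 members 66.1 to 100% of the 36-base windows occurred once in the genome. Of 386 autosomal tRNA genes, 222 (57.5%) had a replicate 2 peak, as did 34 of the 42 inside the spans of Olfr clusters. Most of those 42 stood on chromosome 13 (25 genes, 21 with a peak), where peaks nearer to another protein-coding gene are not members. Without the 14 members near tRNA genes, 378 of 716 were shared (52.8%), and the medians of 34 and 15 were the same.

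Few of the strong members lay at the annotated start of another gene. Of the 54 members over 100, 1 lay within 1000 bp of the start of any other GENCODE transcript, Gm37194 on chromosome 14, whereas 54.7% of all autosomal peaks over 100 did. The rule in part fixes this, since peaks nearer to another protein-coding gene are not members. Against the starts of RefSeq genes the count was 2, with 44.4% of all. At least 7 CpG were found in 17 of the 54 (31.5%, interval 19.5 to 45.6), against 54.4%. The rule bears on the RefSeq and CpG shares too, since it leaves out promoters of other protein-coding genes. Other peaks within 1000 bp of a protein-coding 5′ end held a median of 10 CpG, and those further out 2. After those near a tRNA gene or an annotated start were set aside, 39 were left.

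Other strong members away from tRNA genes lay on several chromosomes. The peak 14.1 kb downstream of Olfr288 on chromosome 15 (chr15:98181396-98181545) had values of 93 and 131 with 13 CpG, and its centre was 938 bp from the RefSeq start of Gm33909. The peak 2.82 kb upstream of Olfr94 on chromosome 17 had 85 and 131. On chromosome 7, 73.9 kb upstream of Olfr291, stood a peak with 82 and 129 and 12 CpG. An intron of Ptprj, a receptor tyrosine phosphatase gene, held a peak with 80 and 129, 76.3 kb from Olfr1274-ps. These 4 were intergenic or intronic and every 36-base window in them occurred once in the genome.

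Among members not found in replicate 1, the highest values were 108 and 90, both in the run beside Olfr1423, then 78 at the promoter of Olfr958, 73 near Olfr1423 and 69 near Olfr1368. Replicate 1 hotspots, which are wider regions of cleavage called apart from peaks, covered 3 of these 5. The first 2 lay in a replicate 1 hotspot at the cap of 100 in −log10 q and the one of Olfr958 in a hotspot at 5.3. At the low end, the 5 weakest members had replicate 2 values of 10 to 12, at Olfr366, Olfr345, Olfr372, Olfr731 and 304 kb from Olfr1507, and none was shared. The last of them lay 4.55 kb from the start of Trav6d-5, a T cell receptor V gene, a type that the rule does not count.

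Runs of members also included places with no shared peak. Members at most 2000 bp apart formed 509 runs, 376 of them single members, and 16 runs held 4 or more. The 8 members near Olfr1339 on chromosome 4 had replicate 2 values of 18 to 45 and no replicate 1 peak. Near Olfr161 on chromosome 16, 8 members stood within 1230 bp with values of 37 to 91, 4 of them shared, and none had all of its 36-base windows found once. The 7 near Olfr1373 on chromosome 11 (30 to 64, 1 shared) were likewise repeated in part and had a mean GC content of 62.6%. Of all members 88 overlapped another member.

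Repeated sequence was more common in members than in other peaks. All 36-base windows occurred once in the genome in 553 members (75.8%), against 95.4% of all autosomal replicate 2 peaks. In the 553, 310 were shared (56.1%) and the median value was 36. The other 177 had 81 shared (45.8%) and a median of 30. At least 50% of the bases were masked as repeat in 67 members (9.18%), against 3.63%. Peaks nearest Vmn1r and Vmn2r genes went further in the same direction: of 327, 43.1% had all windows found once, 47.7% were shared and the median value was 28. Members had a median GC content of 46.3% against 50%, and 28.9% held no CpG against 12.9% of all.

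The class I array of chromosome 7 encloses the beta-globin genes, which are expressed in red cells. Between Olfr67 and Olfr66, which flank the globin genes from Hbb-bt to Hbb-y, 2 members were found, both between Hbb-y and Olfr66. The rule in part fixes this, since peaks nearer to a globin 5′ end are not members. All peaks of this interval were not counted. The first member (chr7:103873196-103873345) had values of 21 and 66 and the second (chr7:103874576-103874725) had 35 in replicate 2 alone. Array-wide, the 47 members had replicate 2 values of 16 to 135 with a median of 35, and 59.6% were shared (interval 44.3 to 73.6). Members inside the other clusters had a median of 30.5 and 47.7% were shared (43.1 to 52.3), so the intervals overlap.

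CTCF binds insulators and loop anchors in most cell types, and its motif is long enough to be rare by chance. The degenerate CTCF consensus, searched on both strands after the first results were seen, occurred in 28 members (3.84%, interval 2.56 to 5.5) and in 2.68% of all autosomal replicate 2 peaks. In windows of 150 bp at 1000 bp to each side the share was 0.137% for members and 0.123% for all. Members with it were stronger, with a median of 75 against 34 without it, and 23 of the 28 were shared (82.1%). The same held over all autosomal replicate 2 peaks, with medians of 96 and 51 and 89.5% of those with the consensus shared. Of the 54 members over 100 it was in 8 (14.8%, 6.62 to 27.1), against 8.28%. None of the 72 promoter members had an exact match, which allows up to 4.99% by the interval. Near matches to the consensus were not counted. In the 2 strongest members with the consensus the match is in capitals.
CTCF peak near Olfr291, chr7:84779276-84779425: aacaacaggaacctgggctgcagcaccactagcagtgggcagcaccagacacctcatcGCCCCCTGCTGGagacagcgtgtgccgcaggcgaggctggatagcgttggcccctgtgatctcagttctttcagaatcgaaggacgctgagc
CTCF peak near Olfr155, chr4:43861256-43861405: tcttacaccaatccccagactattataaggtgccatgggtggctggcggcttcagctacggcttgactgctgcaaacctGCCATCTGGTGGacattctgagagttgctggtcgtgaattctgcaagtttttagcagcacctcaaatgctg
The first had values of 70 and 123 and lay 74.2 kb from Olfr291, and the second had 51 and 120 and lay 9.77 kb from Olfr155. A shorter CTCF-type pattern, CCANNAGGG, was in 6.03% of members (4.41 to 8.01) and 4.56% of all peaks.

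The patterns of the factors that act on receptor enhancers were about as frequent in members as in all autosomal replicate 2 peaks. TAATTA, the core of homeodomain sites such as that of Lhx2, was in 41 members (5.62%, interval 4.06 to 7.54), against 4.88% of all autosomal replicate 2 peaks. In windows 1000 bp to each side of members it was more frequent, at 8.01%, against 4.67% beside all peaks. TCCCNNGGG, an Ebf-type pattern, was in 36 (4.93%, 3.48 to 6.76), against 5.06%. To each side of members this pattern was less frequent, at 1.03%, against 2% beside all peaks. Either was in 74 members (10.1%, 8.04 to 12.6), against 9.71%. Both were in 3 members, against 0.225% of all, and all 3 were shared. Their sequences are shown because they alone hold the pair, with the matches on either strand in capitals.
Olfr794, chr10:129577196-129577345: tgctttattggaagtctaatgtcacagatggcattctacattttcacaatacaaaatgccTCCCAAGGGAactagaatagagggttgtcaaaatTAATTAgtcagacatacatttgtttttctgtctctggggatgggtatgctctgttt
Olfr1111, chr2:87159456-87159605: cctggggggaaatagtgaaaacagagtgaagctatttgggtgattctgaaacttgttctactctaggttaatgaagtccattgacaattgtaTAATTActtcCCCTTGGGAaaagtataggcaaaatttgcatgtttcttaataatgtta
Olfr514, chr7:108797256-108797405: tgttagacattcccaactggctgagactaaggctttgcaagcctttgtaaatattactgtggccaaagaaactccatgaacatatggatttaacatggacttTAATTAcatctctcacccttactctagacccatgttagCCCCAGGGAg
The first 9.62 kb from Olfr794 on chromosome 10 had values of 10 and 54, the second 6.91 kb from Olfr1111 on chromosome 2 had 5 and 30, and the third 28.7 kb from Olfr514 on chromosome 7 had 13 and 24. None was near the strong end of the members.

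Of the other patterns searched on both strands, the E-box CAGATG, bound by proneural factors, was in 14.9% of members (12.4 to 17.7) and 14% of all peaks. The E-box CAGCTG was in 10.1% (8.04 to 12.6) and 13.7%. The AP-1-type TGANTCA was in 6.85% (5.13 to 8.93) and 4.83%. The octamer ATGCAAAT, bound by POU factors, was in 1.92% and 1.68%, and the Sox-type ACAATGG in 2.6% and 2.32%. The NRF1-type GCGCATGCG was in none of the 730, which allows up to 0.504% by the interval, and in 0.288% of all. A match is a string of letters and not a binding site.

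Genes that serve receptor expression were counted at their own promoters, by a peak within 1000 bp of the 5′ end. Of 8 genes of olfactory signalling 3 had a shared one: Adcy3, Gnal and Ano2, a chloride channel (42 and 106). Cngb1 (46) and Gng13 (66) had one in replicate 2 alone. Of 3 genes of receptor folding and export, Ric8b, which encodes a chaperone of G protein alpha subunits, had a shared one (126 and 145), while the receptor transporters Rtp1 (36) and Rtp2 (33) had a peak in replicate 2 alone. All 8 genes of factors that act on receptor genes had a shared one, among them Lhx2 (33 and 101), Ldb1 (100 and 139) and Ebf1 (103 and 140). So did all 8 genes listed for the chromatin of receptor genes, whose part in silencing or activation was not tested. Among them were Lbr, the lamin B receptor (121 and 146), Kdm1a, a histone demethylase (106 and 143) and Cbx5, heterochromatin protein 1 alpha (124 and 149). The share over all autosomal protein-coding genes was 65.6%.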

How the data were processed

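DNase-seq peaks and hotspots were deposited for each of the 2 replicates, so they were called per replicate. Per the labels, coordinates are on mm10. Aligner, peak caller and read length: not given in the sources used here. The authors' peak signal (column 7) is a whole number of at most 150, not scaled between replicates, so levels were compared within a replicate or by rank. The ratio of a peak's values in the 2 replicates is given only to set members beside other peaks. Their deposited hotspot lists give −log10 q values with a cap of 100. The sequence was GRCm38.p6 (RefSeq), in which 99.9% of 27907 start codons read ATG. Genes came from GENCODE M21 and tRNA genes from RefSeq.

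Distances ran from the peak centre to gene 5′ ends. Where a member overlapped several replicate 1 peaks, the highest value was taken. Each 36-base window of the peaks and cluster spans was counted in the whole genome on both strands. Motifs were exact matches on either strand in the 150 bp of a peak. The overlap step was tested on simulated data, where it found 41.4% of 2000 peaks shared and 41.4% were planted. Scripts ran in Python 3.11.15 with numba 0.67.0, scipy 1.17.1, matplotlib 3.10.9, pandas 2.3.3 and numpy 2.4.6.

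The members, gene lists and motifs were chosen with earlier results of these data known. The tRNA genes, other annotated starts, the CTCF consensus and the weighting of other peaks to the members' values were added after the first results were seen. Named members were the 10 with the highest mean percentile rank over both replicates, the 5 strongest of replicate 2 alone, the strongest in each of the 10 clusters with most members, the 10 strongest at promoters, those with both receptor enhancer motifs, the 5 weakest and those beside the globin genes. Not all of these are described. Chromosome X was left out by the rule.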

Additional observations from a re-analysis of the deposited data

Results flagged for a closer look

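Chromosome X, which the rule leaves out, carries 7 protein-coding Olfr genes, and 50 replicate 2 peaks were nearest to them. They are listed because they lie outside the chromosomes used for the members and outnumber the 3 counts that a count of 0 allows. Of the 50, 40 overlapped a replicate 1 peak, and their replicate 2 values ran from 14 to 102 with a median of 66. The gene Firre, a long non-coding RNA gene (chrX:50555744-50635321, minus strand), held 32 of them, with replicate 2 values of 36 to 98 and replicate 1 values of 11 to 60, and 31 of the 32 were shared. The other 18 had a median replicate 2 value of 28, and 9 were shared. The nearest receptor gene of the peaks in Firre was Olfr1324.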

How the results depend on the processing

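Of 32 alternatives, 25 left counts within 1.5 times of the value reported and medians within their 95% interval, and 5 of the 32 were added after the data were seen. Counts were compared without their totals, so a share can move while its count does not. With peaks below the median value of all autosomal peaks left out, 221 members remained and 204 were shared (92.3%, against 86.9% of all peaks). The rule applied without replicate 2, to replicate 1, gave 4280 members, and replicate 1 peaks lay at 235 receptor promoters. Of the 4280, 401 overlapped a replicate 2 peak, a count within 1.5 times of 391 but a share of 9.37% against 53.6%. Ending clusters at any other protein-coding gene gave 90 clusters with a member of 103. At least 1 of the 2 receptor enhancer motifs was in 147 members when 300 bp were searched (20.1%, against 17.3% of all peaks) and in 32 of the shared members (8.18%). Under the other alternatives for it, the shared count ran from 310 (members with all 36-base windows found once) to 402 (replicate 1 hotspots). The rule starts from replicate 2, so no value without replicate 1 exists for the overlap. No paired analysis was possible because there is 1 group. Read depth is unknown, and weak members were mostly found in 1 replicate.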
